A study of Mus musculus with 22 samples.

Results

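Fully-grown mouse oocytes at the germinal vesicle (GV) stage send signals to the granulosa cells around them and keep physical contact with them. The genes described here are 7 genes of that oocyte side, chosen by their names with earlier results of these data known: Gdf9, Bmp15, Bmp6, Fgf8, Kit, Gja4 and Oosp1. They are 7 of the 52636 genes counted in 22 RNA-seq libraries of GV oocytes from C57BL/6 females, and all 7 were tested in both sequencing runs. The single-end run held 3 wild-type libraries, 4 libraries homozygous for the Dicer allele ΔMT (ΔMT/ΔMT), 3 homozygous for the Dicer allele SOM (SOM/SOM) and 1 ΔMT heterozygote (ΔMT/WT), with no ages in the labels. ΔMT is a deletion of the MT retrotransposon promoter that drives the short oocyte Dicer isoform, and a further retrotransposon insertion in the same intron can still start a short transcript in these mice. SOM is an allele, made in an embryonic stem cell line, that encodes tagged full-length Dicer and lacks the introns that hold these promoters.

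The paired-end run combined the SOM allele of Dicer with the DAH allele of Mili. Its 4 double mutants were homozygous for both alleles, its 2 RNAi mutants were SOM/SOM for Dicer with DAH/WT for Mili, its 1 piRNA mutant was DAH/DAH for Mili with SOM/WT for Dicer, and its 4 controls were heterozygous at both genes. DAH is a catalytically dead form of MILI, a PIWI protein that cuts RNA guided by piRNAs. All paired-end mice, controls included, therefore carried at least 1 DAH and at least 1 SOM allele. The labels give ages of 40, 35, 11 and 11 weeks for the double mutants 1o, 2o, 1 and 2, and of 36, 38, 10 and 17 weeks for the controls 1o, 2o, 2 and 3. For RNAi mutants 1 and 2 they give 17 and 13 weeks, and for the piRNA mutant 16 weeks. The methods give a narrower age range for GV oocyte collection than these labels, and the labels were used. According to the methods, the females were superovulated or non-stimulated, without a statement of which for each library. Read type and sequencer were not the same in both runs, so no gene was compared between them.

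Oocytes and granulosa cells depend on each other during follicle growth. GDF9, BMP15 and BMP6 are secreted ligands of the TGF-β superfamily that act on granulosa cells through type I and type II receptor kinases and SMAD proteins, and FGF8 is a fibroblast growth factor that cooperates with BMP15 in cumulus cells. In the other direction, granulosa cells make KIT ligand, which activates the receptor tyrosine kinase KIT on the oocyte surface and through it PI3K signalling. The connexin GJA4 forms the gap junctions between oocyte and granulosa cells, and OOSP1 is a protein secreted by oocytes.

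Kit was the member that differed by genotype in both runs: its mean was 58.3% of wild type in SOM/SOM, 75.5% in ΔMT/ΔMT, 61.7% of control in RNAi mutants and 55.7% of control in double mutants. The ligand genes Gdf9, Bmp15 and Bmp6, the connexin gene Gja4 and Oosp1 were not called in any comparison of genotypes. Fgf8 was called lower in double mutants, close to the threshold.

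Single-end libraries had total counts of 6468380 (SOM/SOM replicate 3) to 90713013, and paired-end libraries had 22928936 to 43540806. Levels are given as CPM, counts relative to the TMM-scaled library total, in which 3 counts correspond to at most 0.411 CPM, and every member lay above 9 CPM in every library. Such floors cover counting error only. The targeted gene followed the labels: Dicer1 was at 992 to 1052 CPM in wild type, 726 CPM in ΔMT/WT, 426 to 533 CPM in ΔMT/ΔMT and 39.6 to 54.5 CPM in SOM/SOM. In the paired-end run, it was at 515 to 756 CPM in controls, 602 CPM in the piRNA mutant and 52.5 to 61.9 CPM in RNAi and double mutants. The oocyte identity of the libraries was checked with 11 oocyte markers, of which 10 were above 10 CPM in every library, and their summed level lay between 6112 and 8221 CPM. The labels do not name the females. The paper calls replicates of both runs biological, and ages differ between most paired-end libraries of a group. How many females gave each pool is not stated, and p-values measure only the spread between these samples. The methods give a fixed number of GV oocytes for the RNA extraction. For any other cells in such pools, fewer cells of a type and less RNA per cell cannot be told apart.

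**Figure D1:**
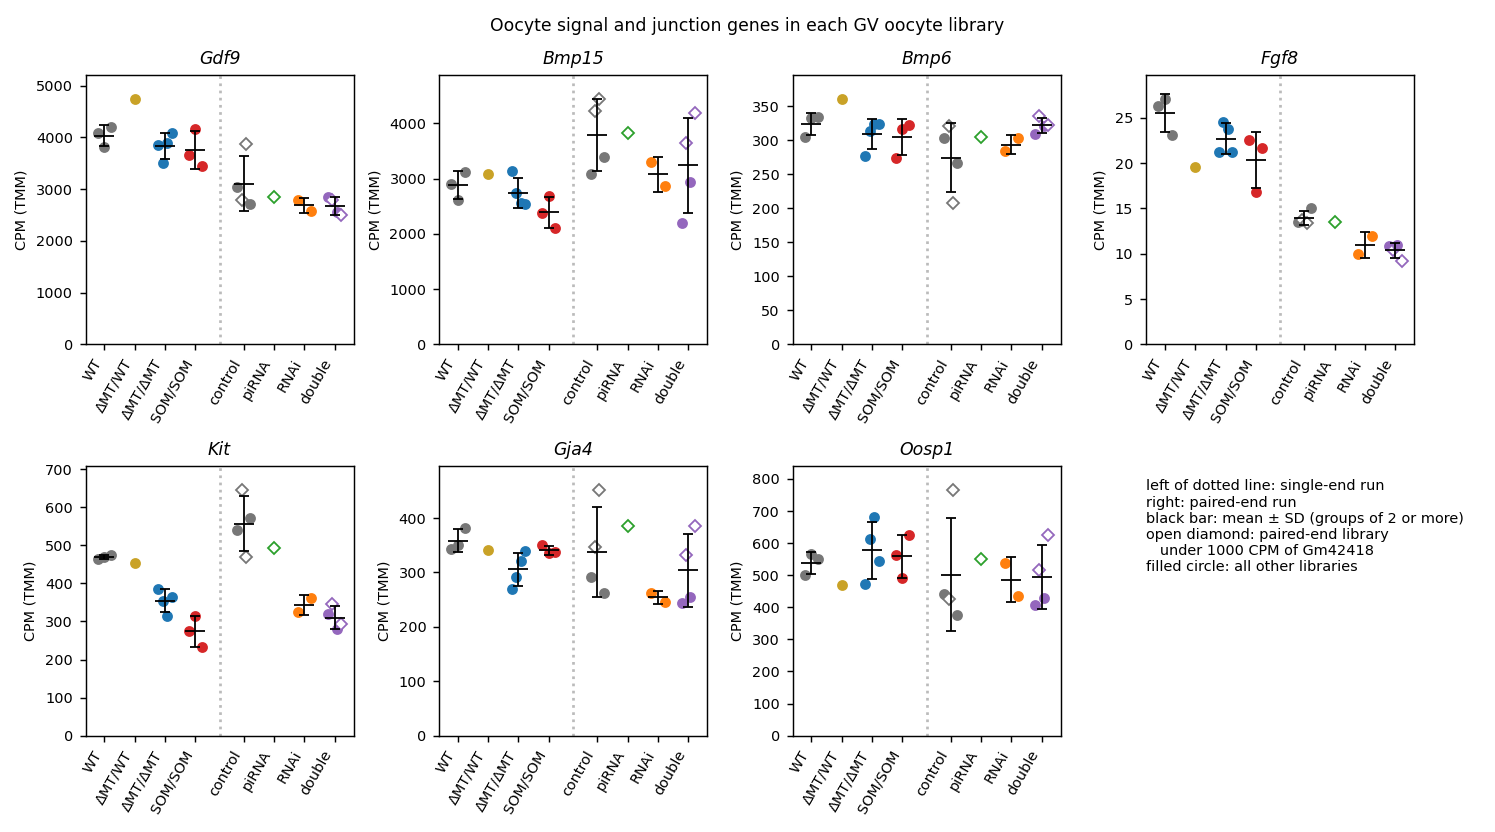
Level (CPM after TMM scaling, linear axis from 0) of each of the 7 genes in each library, by genotype, with single-end groups left and paired-end groups right of the dotted line, black bars for mean ± SD and open diamonds for paired-end libraries under 1000 CPM of Gm42418. Kit lies at 464 to 475 CPM in wild type against 233 to 313 CPM in SOM/SOM, and at 469 to 645 CPM in controls against 279.6 to 347 CPM in double mutants, while the groups of the other genes mostly overlap.

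Per length of transcript, the members spanned a wide range of levels. Expressed as RPKM, the CPM per kilobase of merged exons, wild-type oocytes held Gdf9 at 2248 ± 113 RPKM (SD, n = 3), Bmp15 at 940.1 ± 82.3 RPKM, Oosp1 at 554 ± 35.1 RPKM, Gja4 at 213 ± 12.3 RPKM, Bmp6 at 90.2 ± 4.49 RPKM, Kit at 89.3 ± 1.11 RPKM and Fgf8 at 18.9 ± 1.55 RPKM. By this level, Gdf9 ranked 11th, Bmp15 24th and Oosp1 45th of the 23151 tested genes, Gja4 198th, Bmp6 649th, Kit 663rd and Fgf8 3632nd. Bmp6 and Kit, neighbours in this order, did not differ beyond their spread. In paired-end controls, the order was the same except that Kit, at 106 ± 13.8 RPKM (SD, n = 4), stood above Bmp6, at 76.5 ± 14.0 RPKM. There, Gdf9 ranked 10th and Bmp15 15th of 20989 tested genes.

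Kit (ENSMUSG00000005672.12; GRCm38, chromosome 5, plus strand, 75574916 to 75656722, 21 merged exons) encodes the receptor for the ligand that granulosa cells make. In wild type, it was at 464, 469 and 475 CPM in replicates 1 to 3. In ΔMT/ΔMT, it was at 385, 353, 314 and 366 CPM in replicates 1 to 4, and in SOM/SOM at 275, 313 and 233 CPM in replicates 1 to 3. All mutant libraries of both genotypes were below all wild-type libraries, and the single ΔMT/WT library, at 454 CPM, was just below the wild-type range. The highest SOM/SOM library and the lowest ΔMT/ΔMT library lay next to each other, at 313 and 314 CPM.

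In the quasi-likelihood fit of edgeR, with p-values adjusted by Benjamini-Hochberg over all tested genes and called under 0.05, Kit fell by 0.41 on the log2 scale in ΔMT/ΔMT (SE 0.09, adjusted p = 0.0138). In SOM/SOM, it fell by 0.76 (SE 0.10, adjusted p = 0.0003). It was the 1 member of 7 called in each of these comparisons. Over all tested genes, 15.4% were called in ΔMT/ΔMT, 7.30% as lower, and 28.6% were called in SOM/SOM, 14.2% as lower. A count of 1 in 7 is thus close to the background in the first comparison and below it in the second. The exact two-sided permutation test gave p = 0.0286 for Kit in ΔMT/ΔMT, the smallest p that 4 against 3 libraries allow, and p = 0.1 in SOM/SOM, the smallest that 3 against 3 allow. The ΔMT/ΔMT call was lost without wild-type replicate 2 (log2 fold change −0.41, adjusted p = 0.0512), and the SOM/SOM call was kept under all 14 alternatives for which it was computed. Gm42418, a gene that overlaps ribosomal RNA, was at 12855 and 16459.9 CPM in SOM/SOM replicates 1 and 3, the lower pair for Kit, against 4771 CPM in replicate 2 and 5176 to 5797 CPM in wild type. Without SOM/SOM replicate 1 or 3, the log2 fold change of Kit was −0.75 and −0.68 (adjusted p = 0.00165 and 0.000542), and the part of Gm42418 in this result was not tested.

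The direct comparison of SOM/SOM with ΔMT/ΔMT, which asks whether the stronger loss of oocyte Dicer goes with a further change, called none of the 7 members, where 7.35% of all tested genes were called. The members' log2 fold changes ran from −0.34 for Kit (95% interval −0.55 to −0.13, adjusted p = 0.0555) to 0.19 for Gja4 (interval 0.00 to 0.37, adjusted p = 0.203). The interval of Kit lies below 0 although its adjusted p missed the threshold, and 5 of 15 alternatives brought it past the threshold, among them DESeq2 with an adjusted p of 0.0163. The exact permutation test gave p = 0.0571 for Kit.

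The paired-end run measured Kit in other libraries and genotypes. In controls, it was at 541, 645, 469 and 572 CPM in replicates 1o, 2o, 2 and 3. RNAi mutants 1 and 2 had 324 and 363 CPM, and double mutants 1o, 2o, 1 and 2 had 321, 347, 279.6 and 293 CPM. All RNAi and double mutant libraries were below all control libraries, whereas the single piRNA mutant, which keeps a wild-type Dicer allele, was at 492 CPM, within the control range. Within the older females, double mutants at 321 and 347 CPM stood against controls at 541 and 645 CPM, and within the younger ones 279.6 and 293 CPM stood against 469 and 572 CPM.

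Kit fell by 0.69 on the log2 scale in RNAi mutants (SE 0.16, adjusted p = 0.0114) and by 0.85 in double mutants (SE 0.13, adjusted p = 0.000293) against controls. Again 1 of 7 members was called in RNAi mutants, where 10.7% of all tested genes were called and 3.64% were called lower. In double mutants, 2 of 7 were called, Kit and Fgf8, where 21.2% of all tested genes were called and 8.84% were called lower. The exact permutation test gave p = 0.0667 for RNAi mutants and p = 0.0286 for double mutants, the smallest that each design allows. The RNAi call was lost in 4 of 18 alternatives, among them without RNAi mutant 1 (adjusted p = 0.127), without RNAi mutant 2 (adjusted p = 0.0705) and with younger females only (adjusted p = 0.0862), while the fold change stayed negative in all 18. The double mutant call held in 20 of 21 alternatives and was lost among the 4 libraries under 1000 CPM of Gm42418, described further on (log2 fold change −0.78, adjusted p = 0.0603). The controls of this run differ from wild type, so the sizes of the changes in the runs are not directly comparable.

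**Figure D2:**
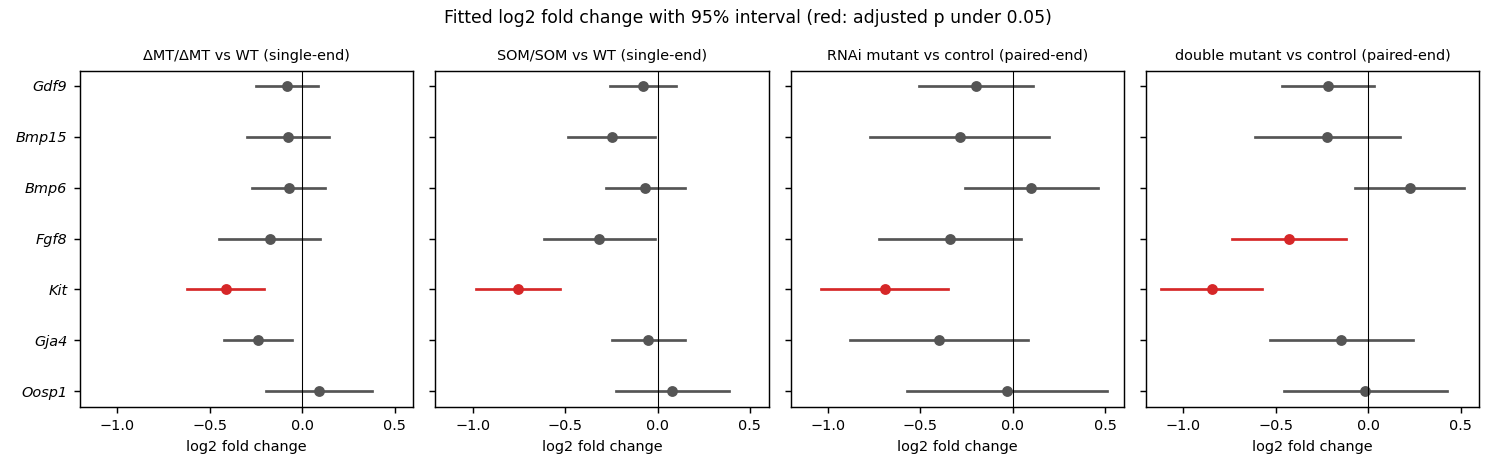
Fitted log2 fold change (x axis) of each of the 7 genes (y axis) with its 95% interval in the 4 comparisons of a mutant with its control, red where the adjusted p was under 0.05. Kit is left of 0 with its whole interval in each panel, at −0.41, −0.76, −0.69 and −0.85, and Fgf8 is red only in the double mutant panel, at −0.43.

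Fgf8 (ENSMUSG00000025219.13; chromosome 19, minus strand, 45736798 to 45742915, 6 merged exons) was the member with the lowest level. In wild type, it was at 26.3, 27.1 and 23.1 CPM, in ΔMT/ΔMT at 21.2, 24.6, 23.8 and 21.2 CPM and in SOM/SOM at 22.6, 16.8 and 21.6 CPM. The SOM/SOM libraries were all below the wild-type libraries, whereas ΔMT/ΔMT overlapped with them, and the single ΔMT/WT library had 19.6 CPM. The log2 fold changes were −0.18 (SE 0.12, adjusted p = 0.386) and −0.31 (SE 0.14, adjusted p = 0.111).

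Paired-end libraries held Fgf8 at 13.5, 13.7, 13.4 and 15.1 CPM in controls 1o, 2o, 2 and 3, and at 10.8, 10.4, 11.0 and 9.23 CPM in double mutants 1o, 2o, 1 and 2. RNAi mutants had 9.96 and 12.0 CPM, and the piRNA mutant had 13.5 CPM, within the control range. All RNAi and double mutant libraries were below all controls. Fgf8 fell by 0.43 on the log2 scale in double mutants (SE 0.14, adjusted p = 0.0481), with an exact permutation p of 0.0286, the smallest possible, and had a log2 fold change of −0.34 in RNAi mutants (SE 0.18, adjusted p = 0.28). The call in double mutants held in only 5 of 21 alternatives. It was lost on leaving out any 1 of the 4 double mutants or control 1o, 2o or 3, with adjusted p-values of 0.0744 to 0.117, and the fold change stayed between −0.48 and −0.37 in all alternatives.

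Gdf9 (ENSMUSG00000018238.6; chromosome 11, plus strand, 53433299 to 53437904, 2 merged exons) encodes the ligand that cumulus expansion and early follicle growth depend on. Its level was at 4086, 3807 and 4201 CPM in wild type, 3859, 3497, 3892 and 4086 CPM in ΔMT/ΔMT and 3656, 4171 and 3452 CPM in SOM/SOM, so that the groups overlapped. The log2 fold changes were −0.08 in both mutants, with 95% intervals of −0.25 to 0.09 and −0.26 to 0.10 (adjusted p = 0.524 and 0.512). In the paired-end run, controls had 3047, 2790, 3879 and 2719 CPM, RNAi mutants 2793 and 2586 CPM, double mutants 2854, 2781, 2549 and 2495 CPM, and the piRNA mutant 2841 CPM. Control 2 stood highest, and Gdf9 had log2 fold changes of −0.20 for RNAi mutants (interval −0.51 to 0.11) and −0.22 for double mutants (interval −0.47 to 0.03, adjusted p = 0.21).

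Bmp15 (ENSMUSG00000023279.7; X chromosome, minus strand, 6314107 to 6320721, 2 merged exons) is the paralogue that pairs with GDF9 and controls follicle growth and ovulation rate. It was at 2897, 2615 and 3118 CPM in wild type, 3131, 2739, 2553 and 2540.3 CPM in ΔMT/ΔMT, and 2380.4, 2678 and 2104 CPM in SOM/SOM. The lower 2 SOM/SOM libraries, replicates 1 and 3, were below all wild-type libraries, and replicate 2 was within their range. Replicates 1 and 3 also had more Gm42418, at 12855 and 16459.9 CPM against 4771 CPM in replicate 2. Its part in the Bmp15 values was not tested. The log2 fold change was −0.08 in ΔMT/ΔMT (adjusted p = 0.655) and −0.25 in SOM/SOM (SE 0.11, 95% interval −0.48 to −0.01, adjusted p = 0.109).

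Paired-end libraries held Bmp15 at 3081, 4230 and 4438 CPM in controls 1o, 2o and 2 and at 3389 CPM in control 3. Double mutants 1o, 2o, 1 and 2 had 2195, 3641, 2934 and 4178 CPM, RNAi mutants 3304 and 2857 CPM, and the piRNA mutant 3831 CPM. The spread within controls and double mutants was as large as the distance between them, and the log2 fold changes were −0.29 in RNAi mutants (interval −0.77 to 0.19, adjusted p = 0.496) and −0.22 in double mutants (interval −0.61 to 0.17, adjusted p = 0.444).

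Bmp6 (ENSMUSG00000039004.6; chromosome 13, plus strand, 38345107 to 38500302, 7 merged exons), a BMP ligand made by oocytes and by other ovarian cells, shares 224 exon bases with Txndc5 on the opposite strand. Because counting ignored strand, reads of the 2 genes could not be told apart there. Bmp6 was at 305 to 334 CPM in wild type, 277 to 324 CPM in ΔMT/ΔMT and 274 to 323 CPM in SOM/SOM. Its log2 fold change was −0.07 in each mutant (adjusted p = 0.637 and 0.657). In controls 1o, 2o, 2 and 3, it was at 304, 321, 207 and 267 CPM, with control 2 lowest. Double mutants lay within a narrow range of 309.7 to 336 CPM, above 3 of the 4 controls, and RNAi mutants had 284 and 304 CPM. The log2 fold change was 0.22 in double mutants (SE 0.14, 95% interval −0.07 to 0.52, adjusted p = 0.284; exact permutation p = 0.0857) and 0.10 in RNAi mutants (adjusted p = 0.791).

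The per-length level of Bmp15 relative to Gdf9, computed after these values were seen and given as a description, ran from 0.357 to 0.475 over the 11 single-end libraries, with a median of 0.384. Over the 11 paired-end libraries, it ran from 0.451 to 0.981, with a median of 0.693. The ratio cannot be compared between the runs, since read type, kit run and mice differ. Its values by the library sets of the paired-end run are given further on.

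Gja4 (ENSMUSG00000050234.7; chromosome 4, minus strand, 127311421 to 127314039, 2 merged exons) was at 343, 350.4 and 382 CPM in wild type, 270.3, 292, 321 and 339 CPM in ΔMT/ΔMT, and 349.9, 336 and 337 CPM in SOM/SOM. The ΔMT/ΔMT libraries were all below wild type, the highest by only a few CPM, whereas SOM/SOM overlapped with wild type. The log2 fold change in ΔMT/ΔMT was −0.24 (SE 0.08, adjusted p = 0.0782; exact permutation p = 0.0571), which DESeq2 placed past the threshold (adjusted p = 0.0411), and in SOM/SOM it was −0.05 (adjusted p = 0.718). Of the paired-end libraries, controls 1o, 2o, 2 and 3 had 291, 347, 451 and 262 CPM, double mutants 1o, 2o, 1 and 2 had 244, 332, 255 and 385 CPM, RNAi mutants 262 and 246 CPM, and the piRNA mutant 386 CPM. The log2 fold changes were −0.40 in RNAi mutants (interval −0.88 to 0.08, adjusted p = 0.313) and −0.14 in double mutants (interval −0.53 to 0.24, adjusted p = 0.635).

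Oosp1 (ENSMUSG00000041857.10; chromosome 19, minus strand, 11667460 to 11691150, 5 merged exons) was at 500.0, 565 and 549.7 CPM in wild type, 472, 612, 680.0 and 544 CPM in ΔMT/ΔMT, and 562, 491 and 624 CPM in SOM/SOM. All 3 genotypes overlapped, with log2 fold changes of 0.09 (SE 0.13, adjusted p = 0.683) and 0.08 (SE 0.14, adjusted p = 0.712). In controls 1o, 2o, 2 and 3, it was at 441, 426, 764 and 376 CPM, so that control 2 stood apart. Double mutants had 407 to 626 CPM, RNAi mutants 537 and 436 CPM, and the piRNA mutant 551 CPM. The log2 fold changes were −0.03 in RNAi mutants (adjusted p = 0.957) and −0.02 in double mutants (adjusted p = 0.973), and without control 2 they were 0.22 and 0.25.

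No member has another gene's transcript in GENCODE M21 that is at least 95% identical over at least 50% of its length. The median of all genes shifted by less than 0.1 on the log2 scale between scalings in each comparison of genotypes.

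From RNAi mutants to double mutants, which adds the loss of MILI activity to the loss of oocyte Dicer, no member was called, where 0.314% of all tested genes were called. The members' log2 fold changes ran from −0.15 for Kit (interval −0.48 to 0.18) to 0.26 for Gja4 (interval −0.22 to 0.73), both with an adjusted p of 1. Of the 20989 tested genes, 1004 had an unadjusted p under 0.05. Between females over and under 30 weeks, no member was called, where 0.00% of all tested genes were called by edgeR, with 1151 of 20626 genes at an unadjusted p under 0.05 and 46 genes called by DESeq2. The members ran from −0.29 for Oosp1 (interval −0.74 to 0.16) to 0.21 for Kit (interval −0.05 to 0.47). The double mutant effect did not differ by age for any member past the threshold, where 0.00485% of all tested genes were called, and the differences ran from −0.42 for Bmp6 (interval −0.97 to 0.13) to 0.31 for Gdf9 (interval −0.23 to 0.85). An adjusted p above the threshold in these comparisons does not show that the members were equal.

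Paired-end libraries fell into 2 sets by their level of Gm42418. Controls 2o and 2, double mutants 2o and 2 and the piRNA mutant had 297 to 550.1 CPM, and the other 6 libraries, both RNAi mutants included, had 4055 to 5562 CPM. The set was balanced over genotype and age in controls and double mutants but not in RNAi mutants. Gja4 was at 332 to 451 CPM in the 5 libraries with low Gm42418 and at 244 to 291 CPM in the 6 others, without overlap. Bmp15 was at 3641 to 4438 CPM against 2195 to 3389 CPM, also without overlap, and Oosp1 was at 426 to 764 CPM against 376 to 537 CPM, with overlap.

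Fitted with the genotype over the 8 controls and double mutants, a contrast chosen after the data were seen, Gja4 was higher by 0.53 on the log2 scale in libraries with low Gm42418 (SE 0.10, adjusted p = 0.0308) and Bmp15 by 0.51 (SE 0.11, adjusted p = 0.0404), where 2.88% of all tested genes were called. Oosp1 had a difference of 0.50 (SE 0.16, adjusted p = 0.113), which DESeq2 placed past the threshold (adjusted p = 0.025), Gdf9 of 0.09 (adjusted p = 0.759) and Kit of 0.05 (95% interval −0.21 to 0.30, adjusted p = 0.884). Both calls were lost on leaving out any 1 of the 4 double mutants or control 1o or 3, with adjusted p-values of 0.0601 to 0.153, while both values stayed between 0.42 and 0.59. With the set as a term in the fit, the RNAi mutant value of Gja4 moved from −0.40 to −0.11 and that of Bmp15 from −0.29 to −0.02, whereas Kit still fell by 0.67 in RNAi mutants (adjusted p = 0.0157) and by 0.85 in double mutants (adjusted p = 0.00021). The per-length ratio of Bmp15 to Gdf9 was 0.670 to 0.981 in the low set and 0.451 to 0.730 in the other. What sets the libraries apart was not tested.

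**Figure D3:**
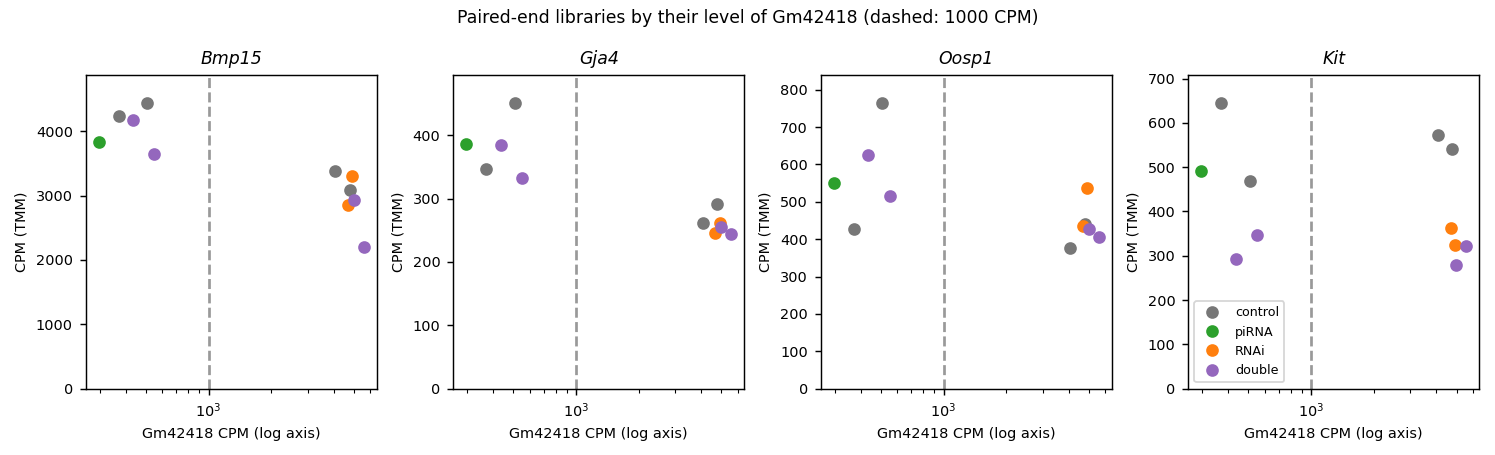
Level (CPM, linear axis from 0) of Bmp15, Gja4, Oosp1 and Kit in the 11 paired-end libraries against the level of Gm42418 (CPM, log axis), coloured by genotype, with the dashed line at 1000 CPM. Bmp15 and Gja4 separate by the dashed line in controls and double mutants alike, while Kit is lower in double mutants than in controls on both sides of it. The RNAi mutants lie only right of the line and the piRNA mutant only left of it.

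The genes whose pattern was most like that of each member were taken by the lower of their Pearson correlations over the 11 single-end and the 11 paired-end libraries, among 7817 other genes with a mean of at least 10 CPM in each run. These are descriptions, since the points share genotypes, libraries and, in the paired-end run, the sets. Kit had the closest neighbours, Elavl2 (r = 0.975 and 0.974 in the 2 runs), Mbtps1 (0.961 and 0.982) and Tgfbr3 (0.962 and 0.96). Bmp15 was most like Fam118b (0.874 and 0.88), Sec23a (0.867 and 0.895) and Snx16 (0.903 and 0.859), and Oosp1 most like Ska1 (0.889 and 0.922), Rps16 (0.874 and 0.861) and Fbxl6 (0.851 and 0.924). Gja4 was most like Arhgef39 (0.868 and 0.851), Gdf9 most like Polb (0.825 and 0.821), Fgf8 most like Rnf165 (0.75 and 0.95) and Bmp6 most like Pan2 (0.744 and 0.804).

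Among the members themselves, correlations changed between the runs. Gdf9 and Bmp15 had r = 0.652 over the single-end and 0.301 over the paired-end libraries, Kit and Fgf8 had 0.33 and 0.905, and Gja4 and Bmp15 had −0.149 and 0.861. No pair of members had r over 0.8 in both runs.

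The partner pathways were measured in the same oocyte libraries, and their lists were also chosen with earlier results of these data known. For each list, the share of its tested genes that was called is given beside 15.4%, 28.6%, 10.7% and 21.2% of all tested genes in ΔMT/ΔMT, SOM/SOM, RNAi mutants and double mutants. Of 25 genes of the KIT ligand and PI3K pathway, all tested, SOM/SOM had 2 higher and 7 lower, and ΔMT/ΔMT had 3 higher and 6 lower, 36% of the list in each. The medians of the list were −0.24 in both, beside medians of 0.02 and 0.01 over all tested genes. The ubiquitin ligase gene Cbl, whose product marks activated receptor kinases such as KIT for removal, fell by 1.47 on the log2 scale in SOM/SOM (SE 0.30, adjusted p = 0.0042), from 86.5 ± 6.34 CPM (SD, n = 3) to 29.8 ± 16.0 CPM (SD, n = 3). Pik3r1, a regulatory subunit of PI3K, fell by 0.77 (adjusted p = 0.000164), from 388 to 224 CPM. In ΔMT/ΔMT, Pik3cb, a catalytic subunit, fell by 0.56 (adjusted p = 0.00586), Mtor, the growth kinase, fell by 0.46 (adjusted p = 0.00844), and the adaptor gene Shc1 rose by 0.48 (adjusted p = 0.0128).

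In the paired-end run, the same list had 2 genes higher and 5 lower in double mutants and 2 higher and 1 lower in RNAi mutants, 28% and 12% of the list, with medians of −0.13 and −0.21 beside 0.00 and −0.02 over all tested genes. Pik3r1 fell by 0.68 in double mutants (adjusted p = 0.00694), and Pik3cb fell by 0.77 in RNAi mutants (adjusted p = 0.00886), where Shc1 rose by 0.71 (adjusted p = 0.00598). Pik3r2, a low-level regulatory subunit gene, fell by 1.96 in double mutants, from 1.74 to 0.442 CPM (adjusted p = 0.00982). Rps6, the ribosomal protein that S6 kinase phosphorylates, was higher in both runs, by 0.83 in SOM/SOM, 0.74 in RNAi mutants (adjusted p = 0.00561) and 0.69 in double mutants, but it shares sequence with 9 annotated copies and Shc1 with 1, so that the division of their reads is uncertain.

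Of 32 receptors, SMADs, processing enzymes and binding proteins of the TGF-β and BMP pathways, 30 were tested in the single-end run. None rose and 6 fell in ΔMT/ΔMT, and 2 rose and 7 fell in SOM/SOM, with list medians of −0.19 and −0.29. The called share was 20% in ΔMT/ΔMT and 30% in SOM/SOM. Smurf2, a ubiquitin ligase that removes SMADs and receptors, fell by 0.83 and 1.12 on the log2 scale (adjusted p = 0.000466 and 4.55e-05), from 450.1 ± 16.2 CPM to 255 ± 25.1 and 204 ± 34.7 CPM. Tgfbr3, the co-receptor betaglycan and one of the genes most like Kit, fell by 0.53 in ΔMT/ΔMT (adjusted p = 0.00287), from 90.6 to 63.1 CPM, and was lower again by 0.37 in SOM/SOM than in ΔMT/ΔMT (adjusted p = 0.0363). Acvr1, a type I receptor gene, fell by 0.51 in ΔMT/ΔMT (adjusted p = 0.0395). Pcsk5, a convertase gene at 3.06 CPM in wild type, fell by 1.69 in SOM/SOM (adjusted p = 0.00802), and Smad5, a BMP pathway SMAD, rose by 1.15 (adjusted p = 0.00653).

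In the paired-end run, 28 of these 32 genes were tested, of which none rose and 4 fell in RNAi mutants, and 1 rose and 4 fell in double mutants, 14.3% and 17.9% of the tested list. Smurf2 fell by 0.95 and 0.77 (adjusted p = 0.000719 and 0.000305), from 504 CPM to 259 and 296 CPM. Bmpr1a, a type I BMP receptor gene, fell by 1.04 and 0.79 (adjusted p = 0.00395 and 0.0025), and Pcsk5 fell by 1.45 and 1.06 (adjusted p = 0.0138 and 0.00981).

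Of 26 other ligands of the TGF-β superfamily, 14 were tested in the single-end and 12 in the paired-end run. In ΔMT/ΔMT 1 rose and none fell (7.14%), in SOM/SOM 3 rose and 1 fell (28.6%), in RNAi mutants 1 rose and none fell (8.33%) and in double mutants 1 rose and 1 fell (16.7%), so that no called share was above that of all tested genes. Gdf11 rose by 1.55 in SOM/SOM (adjusted p = 0.00127), from 4.68 ± 0.521 to 13.4 ± 5.42 CPM, and by 0.91 in RNAi mutants (adjusted p = 0.0267) and 1.71 in double mutants (adjusted p = 4.82e-05), from 3.85 ± 0.453 to 7.24 ± 0.454 and 12.7 ± 3.40 CPM. Bmp7 rose by 1.14 in ΔMT/ΔMT (adjusted p = 0.0216) and by 1.51 in SOM/SOM (adjusted p = 0.00444), from 1.43 CPM to 3.16 and 4.10 CPM. Tgfb2, at 259 CPM in wild type and 252 CPM in controls, fell by 0.36 in SOM/SOM and in double mutants (adjusted p = 0.00816 and 0.0191).

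Of 25 genes of the FGF pathway, 22 were tested in each run. In SOM/SOM, 1 rose and 7 fell, in ΔMT/ΔMT 1 rose and 3 fell, in RNAi mutants 1 rose and 1 fell, and in double mutants 4 rose and 3 fell. The called shares were 36.4%, 18.2%, 9.09% and 31.8% in this order. Spry1, a feedback inhibitor of receptor kinases, fell by 0.78 and 1.39 in ΔMT/ΔMT and SOM/SOM (adjusted p = 0.000336 and 6.03e-06), from 47.7 CPM to 27.9 and 17.8 CPM, and was lower again by 0.60 in SOM/SOM than in ΔMT/ΔMT (adjusted p = 0.00495). It fell by 1.09 in RNAi and 0.92 in double mutants (adjusted p = 0.00176 and 0.00053), but 710 of its 2906 exon bases lie in Gm42922 on the opposite strand. Frs2, the docking protein of FGF receptors, fell by 0.77 and 0.98 in ΔMT/ΔMT and SOM/SOM. Etv5, a transcription factor gene that FGF signalling switches on in many cells, rose by 1.07 in double mutants (adjusted p = 0.00163), from 6.63 to 13.8 CPM, and Dusp6, a phosphatase gene of the same kind, by 2.28 (adjusted p = 0.000223), from 0.635 to 3.10 CPM. Spred1, another inhibitor of receptor kinase signalling, was the FGF pathway gene that rose in RNAi mutants, by 0.90 (adjusted p = 0.00207), from 35.3 to 65.8 CPM. The ligand gene Fgf10 fell by 0.69 in ΔMT/ΔMT and by 0.94 in SOM/SOM (adjusted p = 0.0135 and 0.00263), from 12.7 CPM to 7.88 and 6.51 CPM.

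Of 22 other connexin and pannexin genes, 11 were tested in the single-end and 12 in the paired-end run, of which none was called in ΔMT/ΔMT, 1 rose and 1 fell in SOM/SOM (18.2%), 1 fell in RNAi mutants (8.33%) and 1 rose and 1 fell in double mutants (16.7%). Panx2 fell by 1.11 in SOM/SOM (adjusted p = 0.0195), by 1.75 in RNAi mutants (adjusted p = 0.0124) and by 0.98 in double mutants (adjusted p = 0.0303), from levels of 3.19 CPM in wild type and 2.01 CPM in controls. The connexin gene that rose in SOM/SOM was Gjb2, by 0.92 (adjusted p = 0.0391), from 5.98 ± 1.27 to 11.6 ± 5.26 CPM (SD, n = 3 each), and in double mutants Gja10 rose by 0.95 (adjusted p = 0.0327), from 3.27 ± 0.634 to 6.27 ± 2.59 CPM (SD, n = 4 each). In both cases, the libraries of the groups overlapped.

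Of 18 genes of adherens junctions and of the granulosa cell projections that reach the oocyte, all tested, 4 rose and 6 fell in SOM/SOM, 1 rose and 4 fell in ΔMT/ΔMT, 2 rose and 1 fell in RNAi mutants and 3 rose and 3 fell in double mutants. The called shares were 55.6%, 27.8%, 16.7% and 33.3% in this order. Jup, which encodes plakoglobin, fell by 0.90 in ΔMT/ΔMT (adjusted p = 0.00627), by 1.28 in RNAi mutants (adjusted p = 0.00261) and by 1.24 in double mutants (adjusted p = 0.000256), from 36.3 CPM in wild type and 27.3 CPM in controls. Ctnna1, which encodes the α-catenin that ties cadherins to actin, fell by 0.56 in ΔMT/ΔMT (adjusted p = 0.0138), from 188 to 128 CPM. Fscn1, an actin-bundling protein of cell projections, rose by 1.26 in SOM/SOM, by 1.49 in RNAi mutants and by 1.33 in double mutants, from 4.46 CPM in wild type and 2.61 CPM in controls. Vcl, which encodes vinculin, rose by 0.54 in ΔMT/ΔMT, 1.67 in SOM/SOM, 1.55 in RNAi mutants and 1.46 in double mutants, but 2090 of its 5267 exon bases lie in Ap3m1 on the opposite strand. Ctnna2, a low-level α-catenin gene, rose by 1.57 in SOM/SOM (adjusted p = 0.0285), from 1.56 to 4.61 CPM, with overlap of the groups.

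Of 9 other genes for oocyte signals, all tested, none rose and 1 fell in ΔMT/ΔMT (11.1%), 1 rose and 4 fell in SOM/SOM (55.6%), none was called in RNAi mutants and 2 fell in double mutants (22.2%). Jag1, a Notch ligand gene, fell by 0.28 in ΔMT/ΔMT (adjusted p = 0.0483), from 840.3 to 694 CPM, and by 0.48 in double mutants (adjusted p = 0.0119), from 815 to 584 CPM. Rspo2, an activator of WNT signalling made by oocytes, fell by 0.49 in double mutants (adjusted p = 0.0077), from 364 to 258 CPM. In SOM/SOM, Oosp3, a relative of Oosp1, fell by 0.39 (adjusted p = 0.0149), from 322 to 241 CPM, and Efnb2, an ephrin gene, by 0.58 (adjusted p = 0.00402). Pdgfa, a growth factor gene, rose by 0.78 in SOM/SOM (adjusted p = 0.0215), from 5.36 to 9.32 CPM, but 813 of its 2942 exon bases lie in 6330403L08Rik on the opposite strand.

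Some genes of these lists also differed between SOM/SOM and ΔMT/ΔMT directly, beside Spry1 and Tgfbr3. Vcl was higher in SOM/SOM by 1.13 on the log2 scale (adjusted p = 0.000115), Gdf11 by 1.25 (adjusted p = 0.0102), Smad5 by 0.91 (adjusted p = 0.0425), Spred1 by 0.53 (adjusted p = 0.0383) and Rps6 by 0.41 (adjusted p = 0.0114). For Smad5, the libraries of the groups overlapped, at 36.0 ± 15.8 CPM in SOM/SOM (SD, n = 3) and 19.6 ± 1.30 CPM in ΔMT/ΔMT (SD, n = 4). Lower in SOM/SOM were Daam1, an actin regulator gene, at −0.66 (adjusted p = 0.0024; 513 CPM in ΔMT/ΔMT and 318 CPM in SOM/SOM), and the ligand gene Fgf9, at −0.86 (adjusted p = 0.0123; 28.8 and 15.6 CPM). The values were −1.09 for Cbl (adjusted p = 0.0439), −0.38 for Pik3r1 (adjusted p = 0.0291), −0.46 for Efnb2 (adjusted p = 0.0305) and −0.29 for Tgfb2 (adjusted p = 0.049).

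**Figure D4:**
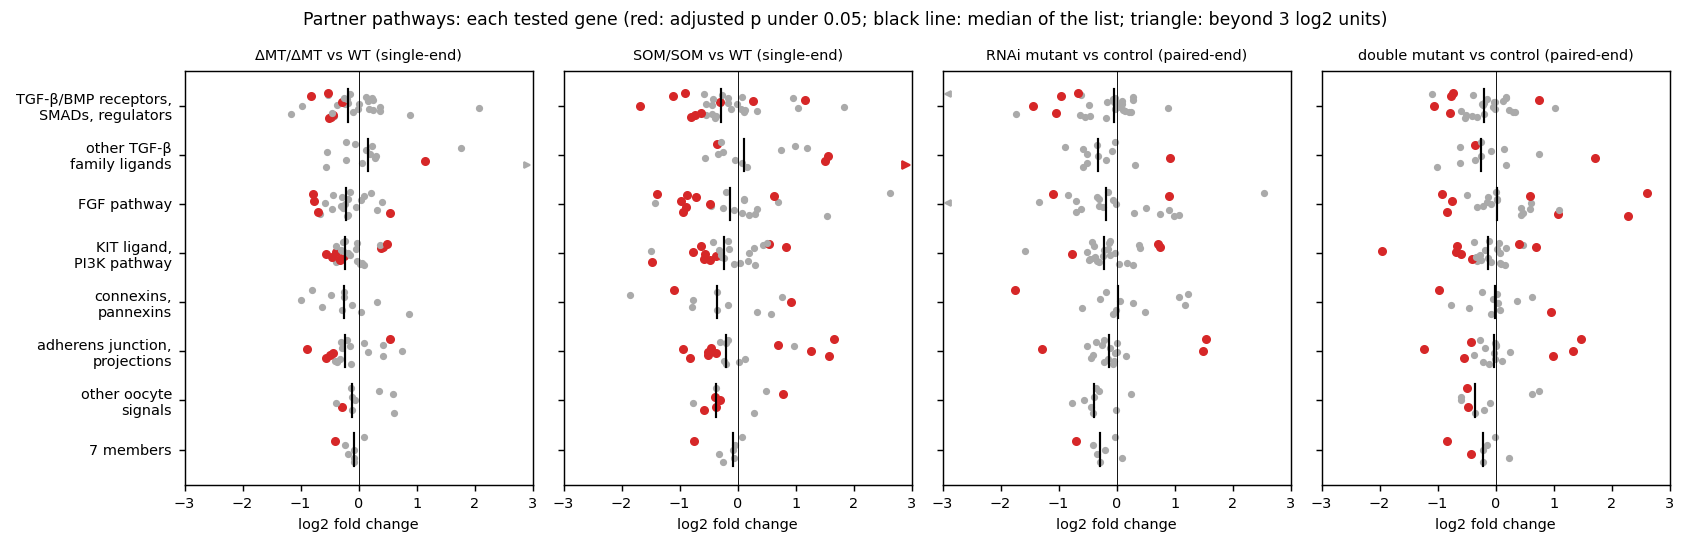
Fitted log2 fold change (x axis) of each tested gene of the 7 partner lists and of the 7 members (rows) in the 4 comparisons of a mutant with its control, red where the adjusted p was under 0.05, with a black line at each list's median and triangles for values beyond 3 log2 units. In the bottom row, Kit is red in each panel and Fgf8 only for double mutants.

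Each list of markers of other cells summed to less than the oocyte markers, and their part in the values above was not tested. Single markers, such as Nr5a2 and Pecam1, were above Fgf8 in every library. The summed level of 20 granulosa and cumulus markers was between 90.3 and 172 CPM over all libraries, overlapping between genotypes, and rested largely on Nr5a2 at 38.3 to 91.7 CPM, Cyp19a1 at 15.1 to 24.9 CPM and Inhba at 6.14 to 45.1 CPM, while the granulosa cell gene Foxl2 was at 0.0654 to 1.21 CPM and Amh at 0.186 to 2.47 CPM. The 9 theca and stroma markers summed to 1.08 to 8.36 CPM. Kit is also expressed by mast cells. The mast cell genes Tpsb2, Mcpt4 and Cpa3 were at most at 0, 0.024 and 0.172 CPM, and the endothelial genes Cdh5 and Cldn5 at most at 0.312 and 0.393 CPM. The 8 endothelial markers summed to 119 to 129 CPM in wild type, 91.5 to 101 CPM in ΔMT/ΔMT and 89.1 to 98.2 CPM in SOM/SOM. In double mutants, at 77.1 to 98.3 CPM, their sum was below that of all controls, at 102 to 129 CPM. The sum in RNAi mutants, at 104 to 118 CPM, was within the control range, whereas Kit was below all controls there. This sum rested mostly on Pecam1, at 48.1 to 82.2 CPM. Unlike Cdh5 and Cldn5, Tek was at 10.4 to 20.6 CPM, Flt1 at 6.20 to 46.0 CPM and Tie1 at 3.70 to 7.10 CPM. Of 7 endothelial markers tested in the single-end run, 2 were called lower and none higher in each mutant. This was 28.6%, beside 15.4% of all tested genes in ΔMT/ΔMT and 28.6% in SOM/SOM. Of 6 tested in the paired-end run, 2 were called lower and none higher in RNAi and in double mutants. That was 33.3%, beside 10.7% and 21.2% of all tested genes. The 10 blood and mast cell markers summed to 118 to 126 CPM in wild type, 102 to 113 CPM in ΔMT/ΔMT and 50.5 to 73.1 CPM in SOM/SOM. Their sums in controls, RNAi mutants and double mutants were 84.8 to 139.5, 79.1 to 83.0 and 61.6 to 122 CPM. The RNAi mutants were below all controls, and the double mutants overlapped with both groups. They came mainly from Ms4a1, at 25.8 to 66.6 CPM, Ighg1, at 10.3 to 79.8 CPM, and Cd68, at 1.23 to 31.0 CPM. The sums hide opposite changes. Of 3 tested in the single-end run, 1 was called higher and 2 lower in SOM/SOM (28.6% of all tested genes called), and none in ΔMT/ΔMT (15.4%). Of 4 tested in the paired-end run, 1 was called higher in RNAi mutants (10.7%) and 2 higher in double mutants (21.2%), with none lower.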

How the data were processed

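The 22 libraries were made by the authors from pools of GV oocytes with the Ovation V2 kit, which does not mark strand. According to the methods, the authors aligned the reads to GRCm38 (the submitters' processing notes name STAR 2.5.3a) and ran featureCounts on GENCODE M15 genes without strand, with multi-mapping reads included and each read split over its places and genes. The deposited table holds these expected counts without normalization. In the command as printed, no option joins the ends of a pair, so paired ends may be counted singly. The lowest and highest total counts of each run are given in the report.

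Expected counts were rounded to whole numbers. Symbols came from a GENCODE name table. Each run was fitted apart by edgeR 4.0.16 (R 4.3.3) with TMM scaling and the quasi-likelihood F test, Benjamini-Hochberg adjustment over all genes tested, a threshold of 0.05 and a prior count of 0.125. Genes were tested when their CPM reached that of 10 counts at the median depth in as many libraries as the smallest group of 2 or more holds, with at least 15 counts in all. The planned filter was filterByExpr with the group; the single piRNA mutant did not enter it. The ΔMT/WT library was left out of the fits. SE and 95% intervals come from the quasi-likelihood test. Exact permutation tests used log2(CPM + 1), two-sided, over all splits of the compared libraries. The scripts were tested on simulated data first.

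The named list genes are, per list and comparison, up to 3 called genes with the largest absolute log2 fold change and a mean of at least 1 CPM in 1 compared group; for some of them, values in other comparisons are added. The 3 genes most like each member follow the rule in the report, and for 4 members only the first is printed. Members and lists were chosen with earlier results of these data known. Copies were searched with blastn in GENCODE M21 transcripts. Alternatives were DESeq2 1.42.0, other scalings and filters, a prior count of 2, only the compared groups, a replicate block, age, a minimum of 1 log2 unit, and each library left out. The set of libraries by Gm42418 and the ratio were added after the data were seen. The labels' replicate numbers were checked for pairing by correlating deviations from group means, and same-numbered libraries were not all correlated above 0.1 in either run, so the main fits have no block.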

Additional observations from a re-analysis of the deposited data

Results flagged for a closer look

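Of 21 groups of 4 libraries tested over the 7 genes (Dicer ΔMT/ΔMT, controls and double mutants), 1 held a library far from the others, where chance gives about 1 in 20. This was Oosp1 in control 2, at 764 CPM against 376 to 441 CPM in the other controls. Control 2 was also the highest control for Gdf9, Bmp15 and Gja4 and the lowest for Kit and Bmp6.

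In the single Dicer ΔMT/WT library, which enters no comparison, Gdf9 was at 4742 CPM and Bmp6 at 361 CPM, above all 3 wild-type libraries, at 3807 to 4201 CPM and 305 to 334 CPM. This flag looked only for values above wild type. The same library was below all wild-type libraries for Fgf8 (19.6 against 23.1 to 27.1 CPM) and Oosp1 (468 against 500.0 to 565 CPM). It was also below them for Kit (454 against 464 to 475 CPM) and Gja4 (341.8 against 343.3 to 382 CPM). Bmp15, at 3089 CPM, was within the wild-type range. With 1 library, these differences have no replicate check.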

How the results depend on the processing

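Over all alternatives, 632 member fold changes kept their direction and side of the threshold, 34 lost and 9 gained a call, and 25 changed sign, all of them values without a call. Among members called, ΔMT/ΔMT against wild type had 1, with 2 by DESeq2 and 0 to 1 on leaving out a replicate. SOM/SOM had 1. SOM/SOM against ΔMT/ΔMT had 0, with 1 by DESeq2, library totals alone or a filter at 5 CPM, and 0 to 1 without a replicate. RNAi mutants had 1, with 0 among younger females and 0 to 1 without a replicate. Double mutants had 2, with 1 under library totals alone, no filter, a filter at 5 CPM, only the compared groups, an age term, younger females or libraries over 1000 CPM of Gm42418, 0 under 1000 CPM, and 1 to 2 without a replicate. The contrast of libraries by Gm42418 had 2, with 3 by DESeq2 and 0 to 2 without a replicate. A minimum of 1 log2 unit left 0 in each. The cause was not tested.

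The correlation of same-numbered libraries ran from −0.0288 to 0.113 in the single-end and from −0.183 to 0.316 in the paired-end run. Same-numbered controls and double mutants had 0.316 for 1o, 0.0907 for 2o and 0.301 for 2. The check cannot exclude pairing. With 2 RNAi mutants, their deviations from the group mean mirror each other, so they carry no information on it. With the replicate block, RNAi mutants had 0 members called (Kit −0.45, adjusted p = 0.196) and double mutants 1, and the RNAi count over all genes was 1228 against 2247.

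Signs changed as follows. In SOM/SOM, Bmp6 and Gja4 were at 0.0061 and 0.019 with library totals alone and at 0.017 and 0.030 with a filter at 5 CPM. Without a replicate, Bmp6 ran from −0.14 to 0.015 and Oosp1 from −0.037 to 0.17. In RNAi mutants, Oosp1 was at 0.24 with the library set term and at 0.25 among libraries over 1000 CPM, and without a replicate Oosp1 ran from −0.21 to 0.22 and Bmp6 from −0.029 to 0.19. In double mutants, Oosp1 was at 0.023 with a filter at 5 CPM and at 0.028 among libraries over 1000 CPM, and without a replicate Oosp1 ran from −0.16 to 0.25 and Gja4 from −0.29 to 0.020. From RNAi to double mutants, Gja4 was at −0.036 with the library set term and −0.026 among libraries over 1000 CPM. In the contrast by Gm42418, leaving out a replicate gave Kit values from −0.043 to 0.16, Bmp6 values from −0.14 to 0.12 and Gdf9 values from −0.021 to 0.15.

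Counts over all genes moved by over 1.5 times in these cases. ΔMT/ΔMT had 3556, with 2203 and 2205 without wild-type replicate 1 or 2 and 1486 at 1 log2 unit. SOM/SOM had 6627, with 4372 at 5 CPM and 3320 at 1 log2 unit. SOM/SOM against ΔMT/ΔMT had 1702, with 2733 by DESeq2, 632 at 1 log2 unit and 899 to 1806 without a replicate. RNAi mutants had 2247, with 1353 among younger females and 1038 and 1057 without RNAi mutant 2 or 1. Double mutants had 4447, with 1932 among younger females, 1437 under 1000 CPM of Gm42418 and 2642 at 1 log2 unit. Double against RNAi mutants had 66, with 169 by DESeq2, 147 without a filter and 25 without RNAi mutant 2. Age had 0, with 46 by DESeq2, 150 without a filter, 2 with the library set term and 8 without control 3. Its interaction had 1, with 14, 105 and 0 to 4 by DESeq2, without a filter and without a replicate. The contrast by Gm42418 had 537, with 1632 by DESeq2, 1407 without a filter, 1050 at 5 CPM, 866 with an age term, 58 at 1 log2 unit and 30 to 935 without a replicate.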
